A study of Mus musculus with 2 samples.

Results

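Nuclear genes of mitochondrial protein import and membrane dynamics were examined in brown preadipocytes (D0) and brown adipocytes (D7) by RNA-Seq. The genes were all those with values whose symbol begins with Timm or Tomm and a digit, together with Mfn1, Mfn2, Opa1, Oma1, Dnm1l, Fis1, Mff, Phb, Phb2, Immt and Samm50. They were 35 of the 23361 genes with values. The cells came from interscapular brown fat of newborn C57BL/6 mice, and each stage was represented by 1 library. Both groups were kept in medium with insulin (0.1 μM) and T3 (1 nM) according to the sample labels. The D7 group additionally received dexamethasone at 2 μg/ml, indomethacin at 0.125 mM and IBMX at 0.5 mM for 2 days from day 0, and was collected on day 7. The labels call the cells primary cultures, whereas the methods of the study describe immortalization with large T and other amounts of insulin and dexamethasone.

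Most mitochondrial proteins are made in the cytosol and enter through the TOM complex of the outer membrane. Proteins with a presequence then pass the TIM23 complex into the matrix, carrier proteins are escorted by small TIM chaperones to the TIM22 complex, and barrel proteins of the outer membrane are inserted by the SAM complex. The inner membrane is folded into cristae, whose necks are held by the MICOS complex, and mitochondria fuse and divide through GTPases of both membranes. Brown adipocytes are known for dense mitochondria with many cristae, in which uncoupled respiration produces heat.

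The deposited values were FPKM, fragment numbers divided by transcript length and library size. With 1 library per stage there was no replicate check, no test and no p-value. The 95% intervals below rest on the approximate number of fragments behind each value and cover counting error between the 2 libraries only; the spread between cultures was not measured. The library sizes behind the FPKM values came to 21471824 fragments (D0) and 18266002 (D7). In a bulk culture, fewer cells of a type and less RNA per cell cannot be told apart. A gene is described as at least 2.0-fold higher or lower where its level at D7 divided by that at D0 was 2.0 or more, or 0.5 or less, the threshold of the study.

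Adipocyte genes agreed in direction with the labels of the libraries. All 6 of the adipocyte list (Pparg, Cebpa, Fabp4, Adipoq, Plin1 and Lipe) were higher at D7, and their summed FPKM went from 36.7 (D0) to 16372 (D7). Of the brown adipocyte list, Ucp1, Cidea and Elovl3 were listed at 0 at D0, and its 6 genes summed to 1.25 (D0) and 70.7 (D7). All 6 were higher at D7, though Prdm16 differed little (0.835 and 1.02). Most of the D7 sum was Elovl3 (34.2) and Cidea (24.4), while Ucp1 stood at 4.57. Of 5 preadipocyte and fibroblast genes, 4 were lower at D7 and the list summed to 3157 (D0) and 1380 (D7). Most of that sum was Col1a1 at D0 (1900, and 601 at D7). Of the 4, Pdgfra was nearly level (52.1 and 50.7), and the exception, Cd34, was higher at D7 (1.85 and 15.4). All 7 macrophage genes with values were higher at D7, summing to 140 (D0) and 507 (D7), and none was listed at 0 in either library. Their part in the values below was not tested. Endothelial and erythroid genes had summed FPKM of at most 0.701 in each library. The skeletal muscle list summed to 51.1 at D0 and 4.8 at D7, with Myod1, Myf5 and Ckm listed at 0 in both.

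FPKM was above 0 in both libraries for 33 of the 35 genes, and Timm8a2 and Tomm20l were listed at 0 in both. The 33 genes ranged from 5.99 (Oma1) to 120 (Fis1) at D0, and from 7.51 (Oma1) to 169 (Timm23) at D7. They summed to 1429 FPKM at D0 and 2023 at D7, or 0.279% and 0.387% of the sum over all genes. The median ratio of D7 to D0 was 1.47 (log2 0.55), beside a median log2 ratio of 0.02 over all 14986 genes above 0 in both libraries and -0.08 over the 7576 that reached 5 FPKM in D0 and D7, as all 33 genes did. The ratio was above 1 for 28 of the 33 genes, beside 50.6% of all genes.

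At least 2.0-fold higher at D7 were 5 of the 33 genes (15.2%), namely Immt, Opa1, Timm9, Timm44 and Timm10. Of all genes, 18.5% were at least 2.0-fold higher, and of those that reached 5 FPKM in D0 and D7 9.37%. None of the 33 was at least 2.0-fold lower, beside 13.2% of all genes and 8.28% of those that reached 5 FPKM. At a threshold of 1.5-fold, 14 were higher (42.4%; all genes 27.7%) and none was lower (all genes 23.6%). The share past 2.0-fold was thus near that of all genes, while the list had no gene in the lower tail. The 95% counting interval lay above 1 for 24 genes (all genes 34.2%), below 1 for 4 (all genes 35.3%), and included 1 for 5. These shares of all genes are not matched by level: genes with few fragments have wide intervals that include 1 more readily.

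These directions depended in part on the scaling between the libraries. Setting values under 0.01 to 0.01 and dividing each library by the median of all its values moved the median log2 ratio of all genes above 0 from 0.02 to -0.34. Over the same 14986 genes, 61.9% of those called were then lower at D7, in place of 41.7%, and over all 23361 genes, with those at 0 set to the floor, 57.5% were. With this scaling only Immt and Opa1 stayed past 2.0-fold, beside 2001 of the 14986 genes at least 2.0-fold higher. A ratio below 1 was found for 13 of the 33 genes, and the median ratio of all genes above 0 was below 1 too. Over all scalings tried, the ratio crossed 1 for 8 genes (Mff, Mfn1, Oma1, Tomm5, Tomm7, Tomm22, Tomm40 and Tomm70a), and these are given below by their values without a direction. Ratios between genes within a library do not depend on the scaling.

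**Figure D1:**
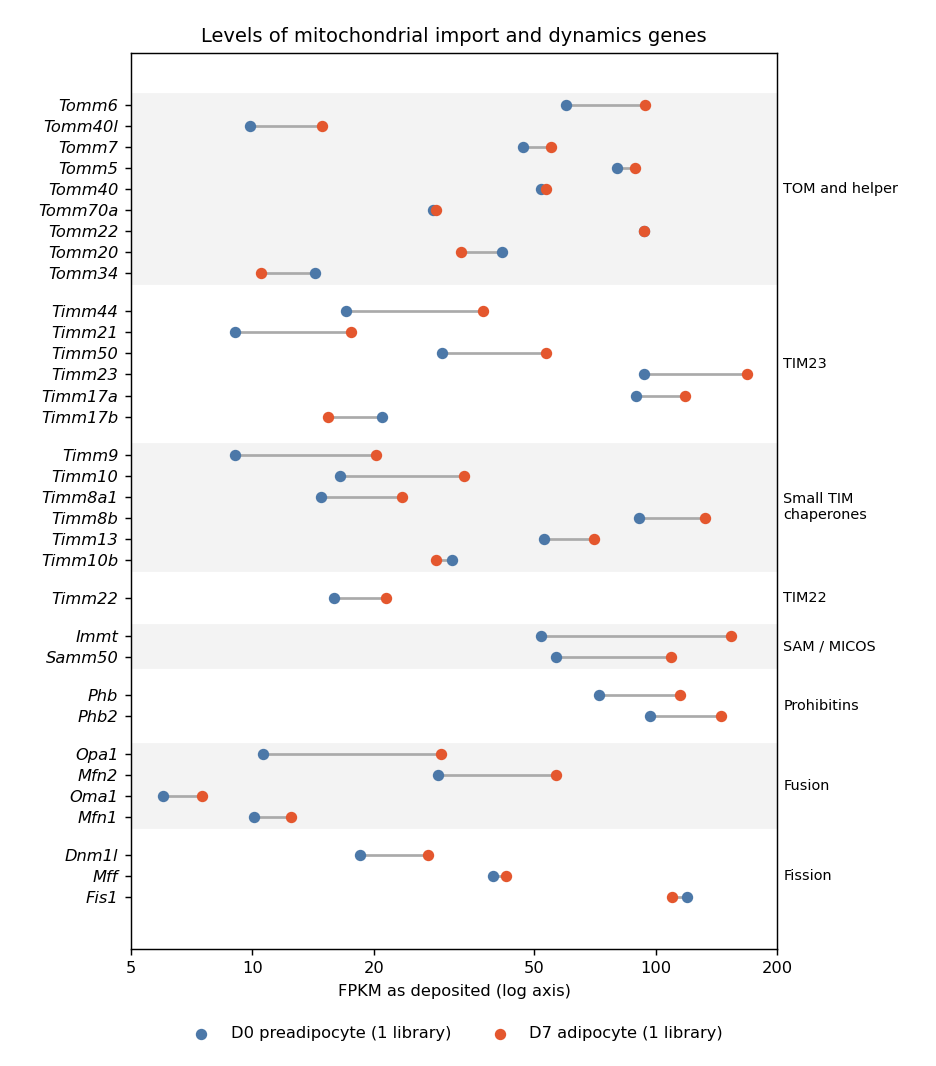
FPKM of each gene at D0 and D7 on a log axis, 1 library per stage, grouped by role; Timm8a2 and Tomm20l, listed at 0 in both libraries, are not drawn. Immt shows the longest line, from 51.9 to 154, while the points of Tomm22, Tomm40 and Tomm70a nearly coincide.

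The genes past 2.0-fold are shown by the sequence around their start, since they are the 5 with the largest ratios. The RefSeq promoter table for GRCm38.p6, the build that mm10 denotes, gives 250 bases before and 50 after each start, and 32 of the 35 genes, with 39 starts, were matched in it and used. Capitals mark matches to 7 short letter strings on either strand, which are known as core motifs of common promoter factors: GCGCATGCG (NRF1-type), CCGGAAG (ETS-type), CAAGGTCA (ERR-type), AAGATGGCG (YY1-type), CACGTG (E-box), TGACGTCA (CRE-type) and CCAAT. Each is written 5′ to 3′ on the strand of its gene. Timm8b is added for its neighbour Sdhd, a subunit of succinate dehydrogenase, which starts 98 bp away on the opposite strand. Neighbours of Timm23 (Parg, 51 bp) and Timm17b (Pqbp1, 88 bp) start nearer, and the windows of those members are not shown.
Immt, chr6:71831070-71831369, plus strand: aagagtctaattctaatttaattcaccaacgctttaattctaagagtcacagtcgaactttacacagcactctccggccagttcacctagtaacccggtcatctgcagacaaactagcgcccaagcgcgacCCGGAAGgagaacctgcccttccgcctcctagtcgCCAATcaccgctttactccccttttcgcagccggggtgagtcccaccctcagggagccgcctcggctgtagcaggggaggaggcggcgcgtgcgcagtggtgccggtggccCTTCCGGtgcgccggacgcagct
Opa1, chr16:29579084-29579383, plus strand: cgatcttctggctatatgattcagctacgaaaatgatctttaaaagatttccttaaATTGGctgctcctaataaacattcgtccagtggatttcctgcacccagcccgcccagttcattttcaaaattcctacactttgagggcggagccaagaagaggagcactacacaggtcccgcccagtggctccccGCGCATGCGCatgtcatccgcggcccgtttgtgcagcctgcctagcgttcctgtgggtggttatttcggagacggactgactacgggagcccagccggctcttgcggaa
Timm9, chr12:71136626-71136925, minus strand: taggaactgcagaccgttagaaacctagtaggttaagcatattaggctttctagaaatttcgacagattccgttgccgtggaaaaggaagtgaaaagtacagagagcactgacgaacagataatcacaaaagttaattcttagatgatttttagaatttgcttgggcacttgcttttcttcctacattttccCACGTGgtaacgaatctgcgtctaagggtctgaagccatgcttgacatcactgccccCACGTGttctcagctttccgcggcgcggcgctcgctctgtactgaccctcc
Timm44, chr8:4275856-4276155, minus strand: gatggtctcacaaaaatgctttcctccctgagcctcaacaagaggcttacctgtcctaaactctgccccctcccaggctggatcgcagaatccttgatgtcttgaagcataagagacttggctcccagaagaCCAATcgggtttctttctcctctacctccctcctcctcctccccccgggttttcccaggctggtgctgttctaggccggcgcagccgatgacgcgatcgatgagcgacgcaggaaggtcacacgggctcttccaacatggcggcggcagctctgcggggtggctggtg
Timm10, chr2:84826771-84827070, plus strand: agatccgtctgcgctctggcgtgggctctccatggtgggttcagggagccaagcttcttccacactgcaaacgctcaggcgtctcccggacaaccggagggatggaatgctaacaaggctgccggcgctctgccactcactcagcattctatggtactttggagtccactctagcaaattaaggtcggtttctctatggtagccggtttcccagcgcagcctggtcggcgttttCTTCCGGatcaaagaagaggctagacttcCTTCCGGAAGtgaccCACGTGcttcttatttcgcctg
Timm8b, chr9:50603651-50603950, plus strand: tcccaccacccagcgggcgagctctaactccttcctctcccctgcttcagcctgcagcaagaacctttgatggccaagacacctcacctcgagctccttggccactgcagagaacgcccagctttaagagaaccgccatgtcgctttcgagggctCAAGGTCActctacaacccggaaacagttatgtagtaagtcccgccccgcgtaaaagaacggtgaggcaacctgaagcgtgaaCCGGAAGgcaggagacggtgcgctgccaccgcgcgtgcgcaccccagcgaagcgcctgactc
The start itself is position 0, and a match is placed by its leftmost base. Immt held the ETS-type letters at -119 and 27 and a CCAAT box at -84, and Opa1 held the NRF1-type letters at -59 and, on the other strand, overlapping at -58, and a CCAAT box at -194. Timm10 held the ETS-type letters at -16, 13 and 16, where the last 2 overlap, and an E-box at 28. Timm9 held an E-box at -58 and at -1, and Timm44 a CCAAT box only. The 5 windows thus had no string in common.

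The ETS-type letters stood in 15 of the 39 promoters (38.5%), beside 15.4% of the 13465 promoters of coding genes above 0 in both libraries and 8.86% of all 32851 promoters. These promoters belonged to 13 genes. They include Timm8a2, listed at 0 in both libraries, and overlapping windows of Tomm34 that share a site. The CCAAT box stood in 38.5% (37.2% of coding genes, 37.4% of all) and the E-box in 15.4% (9.56% and 7.15%). The NRF1-type letters stood in 2 promoters (5.13%, beside 3.35% of coding genes and 1.75% of all). The ERR-type letters stood in 1, that of Timm8b at -95 (1.03% of coding genes and 1.56% of all), the YY1-type letters in 1, that of Timm50 (2.62% and 1.4%), and the CRE-type letters in none (2.89% of coding genes and 1.79% of all). The median GC content was 59.3% in these promoters and 60.3% in those of coding genes. The median ratio was 1.35 in the 12 genes above 0 with the ETS-type letters (0.733 to 2.96) and 1.45 in the 18 without (0.734 to 2.77). A link between these letters and the ratio was not tested. A match is a description of the letters and not of binding.

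On the deposited scale, 3 core subunits of the TOM complex were nearly level between the libraries. Tomm40, the pore of the outer membrane, stood at 52.0 FPKM at D0 and 53.4 at D7 (ratio 1.03, 95% interval 0.956 to 1.10). Tomm22, the central receptor, had 93.4 and 93.6, with an interval of the ratio from 0.921 to 1.09. Tomm70a, the receptor for carrier proteins, had 28 and 28.6 (ratio 1.02, 0.973 to 1.07). For these 3 core subunits a difference was not detectable at this depth. Tomm20, the receptor for presequences, was lower at D7, with 41.7 at D0 and 33.0 at D7 (ratio 0.792, 0.755 to 0.831). The interval of Tomm20 lay below those of Tomm22 and Tomm70a, which overlapped each other.

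Among the small subunits that stabilize the pore, Tomm5 stood at 80.2 FPKM at D0 and 89.1 at D7 (ratio 1.11.) Tomm7 had 46.9 and 55.2, a ratio of 1.18. Tomm6 was higher at D7, with 60.1 at D0 and 94.4 at D7 (ratio 1.57, 1.45 to 1.70). Its deposited locus also holds Frs3, Prickle4, Usp49 and the readthrough gene Gm21981, and that of Tomm7 holds Fam126a, Klhl7 and Rint1, so both values are uncertain. The 7 core subunits together summed to 402.3 FPKM at D0 and 447.3 at D7 (ratio 1.11).

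Tomm34, a cytosolic partner of Hsp70 and Hsp90, was lower at D7 with 14.3 at D0 and 10.5 at D7 (ratio 0.733, 0.646 to 0.831). It was the gene with the lowest ratio of the 33, and its deposited locus also overlaps Stk4 on the opposite strand. Tomm40l, the paralogue of Tomm40, was higher with 9.89 and 14.9 (ratio 1.51, 1.39 to 1.64), and shares its deposited locus with Nr1i3. On the deposited values, Tomm40 was 5.26 times the level of Tomm40l at D0 (4.85 to 5.70) and 3.58 times at D7 (3.31 to 3.86). A transcript of Nr1i3 matches 2119 of the 4712 bases of the Tomm40l transcript. The use of strand is not known, so the level of Tomm40l and this quotient are uncertain. Tomm20l, the paralogue of Tomm20, was listed at 0 in both libraries, where 3 fragments, the limit that a count of 0 allows, correspond to 0.350 FPKM (D0) and 0.415 FPKM (D7).

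The presequence translocase of the inner membrane was higher at D7 in 5 of its 6 genes. Timm23, the channel subunit, stood at 93.8 FPKM at D0 and 169 at D7 (ratio 1.8, 1.70 to 1.91), and was the gene with the highest FPKM of the 33 at D7. Timm50, its presequence receptor, had 29.5 and 53.5 (ratio 1.82, 1.66 to 1.98). Timm21, which links TIM23 to TOM, had 9.06 and 17.6 (ratio 1.95, 1.73 to 2.20). Timm44, which anchors the Hsp70 motor at the channel, had 17.1 and 37.4 (ratio 2.19, 1.98 to 2.42). Timm21, the lowest of this group at D0, shares its deposited locus with Fbxo15 on the opposite strand.

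The 2 forms of Timm17, the other channel subunit, went in opposite directions. Timm17a had 89.3 at D0 and 118 at D7 (ratio 1.32, 1.18 to 1.49), whereas Timm17b on the X chromosome had 21 and 15.4 (ratio 0.734, 0.663 to 0.812). Timm17a was thus 4.26 times the level of Timm17b at D0 (95% interval 3.83 to 4.73) and 7.67 times at D7 (6.85 to 8.59). The intervals did not overlap. Summed over the group, FPKM was 259.7 at D0 and 411.0 at D7. Timm23 alone was 1.8 times the level of Tomm40 at D0 (1.69 to 1.93) and 3.16 times at D7 (2.97 to 3.37). Relative to the summed core TOM subunits, the TIM23 group stood at 0.645 at D0 and 0.919 at D7.

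Some of these values may include reads of near-identical copies. Annotated transcripts of processed pseudogenes with at least 95% identity over at least 200 bp were found for Timm23, Timm17a, Tomm20 and Phb. For Timm23 the coding gene Gm10273 also matched. With these, 9 genes matched a transcript of another gene, among them Tomm40l (Nr1i3) and Timm8a1 (Gm9797). How the authors divided such reads is not given in the sources used here.

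The small chaperones of the intermembrane space form hexamers that carry hydrophobic proteins. Timm9 and Timm10, which form the main hexamer, were both at least 2.0-fold higher at D7. Timm9 stood at 9.04 FPKM at D0 and 20.3 at D7 (ratio 2.25, 1.79 to 2.83), and Timm10 had 16.5 and 33.5 (ratio 2.02, 1.68 to 2.44). They rested on 119 and 182 fragments at D0, and both intervals included 2.0. With 1 added to each FPKM, after division by the median or the upper quartile of genes above 0 in both, as TPM, or with the floor of 0.01, Timm10 no longer reached 2.0. Timm9 stood at 0.546 times Timm10 at D0 (0.430 to 0.692) and 0.606 times at D7 (0.509 to 0.722), so the ratio of the partners differed by less than counting error. Timm9 shares its deposited locus with Tomm20l on the opposite strand, which was listed at 0.

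Timm8 and Timm13 form the other hexamer. Timm13 had 52.9 at D0 and 70.2 at D7 (ratio 1.33, 1.23 to 1.44), and its deposited locus also overlaps Tmprss9. Timm8b had 90.9 and 133 (ratio 1.47, 1.32 to 1.63), and Timm8a1, the X-linked form, 14.8 and 23.5 (ratio 1.58, 1.39 to 1.8). Timm8b was 6.12 times the level of Timm8a1 at D0 (5.40 to 6.95) and 5.68 times at D7 (5.09 to 6.35), intervals that overlapped. The deposited locus of Timm8b also holds Nkapd1 and Pih1d2. Timm8a2 was listed at 0 in both libraries, with limits of 0.190 at D0 and 0.225 at D7.

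Timm10b, the small TIM bound to the TIM22 complex, did not follow Timm9 and Timm10. It stood at 31.3 FPKM at D0 and 28.6 at D7, and the interval of its ratio of 0.916 ran from 0.750 to 1.12. The readthrough gene Gm45799 covers it on the same strand. Timm10 was 0.529 times the level of Timm10b at D0 (0.434 to 0.645) and 1.17 times at D7 (0.971 to 1.41). Timm22, the pore for carrier proteins, had 15.9 and 21.5 (ratio 1.35, 1.10 to 1.64). Relative to Timm13, Timm10 stood at 0.313 at D0 (0.266 to 0.366) and 0.477 at D7 (0.420 to 0.540).

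**Figure D2:**
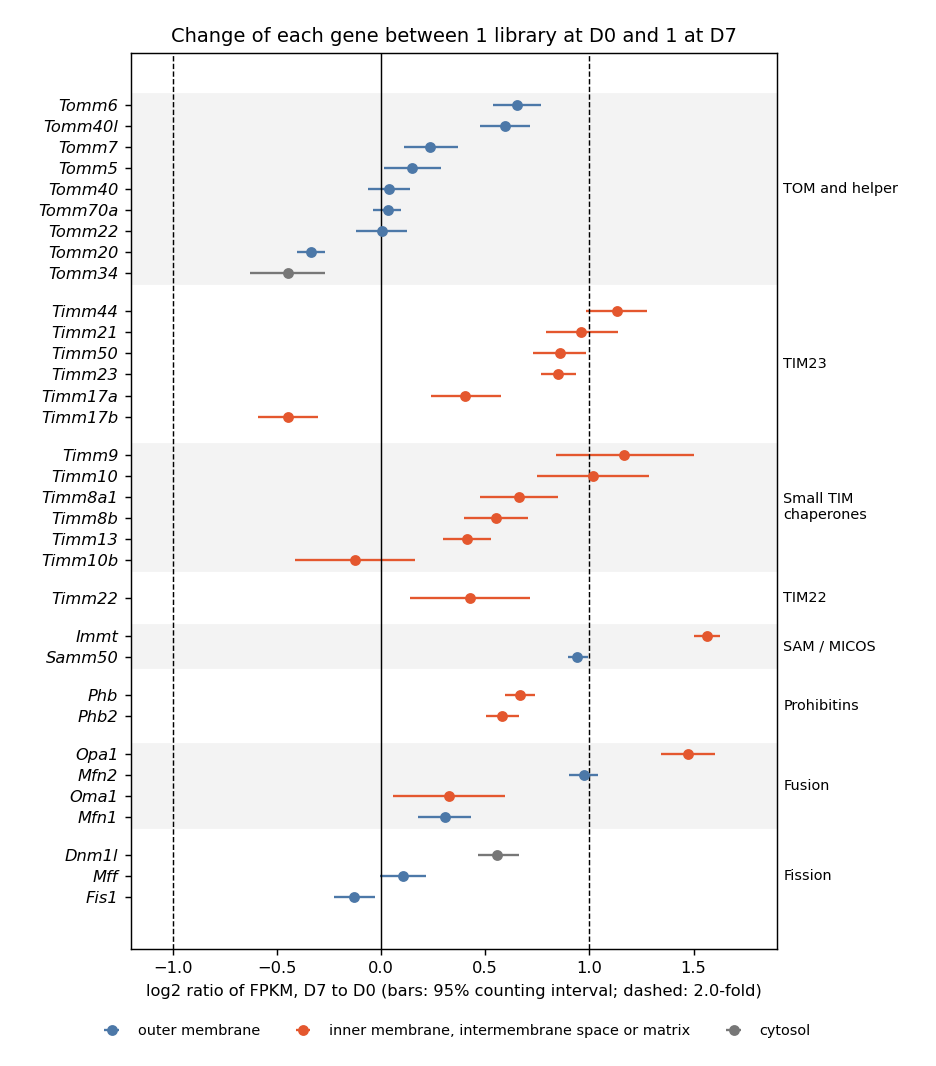
log2 ratio of D7 to D0 for the 33 genes above 0 in both libraries, with 95% counting intervals as bars, coloured by the place of the protein; dashed lines mark 2.0-fold. The TOM genes lie around 0 and between -0.45 (Tomm34) and 0.65 (Tomm6), whereas Immt (1.57) and Opa1 (1.47) lie farthest to the right.

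The shaping of the inner membrane gave the highest ratios. Immt (mitofilin, chromosome 6, 71831331 to 71877388, plus strand), the core subunit of MICOS, stood at 51.9 FPKM at D0 and 154 at D7 (ratio 2.96, 2.83 to 3.09). Among all genes that reached 1 FPKM in a library, this ratio lay at percentile 90.3. Samm50, the barrel-inserting core of the SAM complex that contacts MICOS across the membranes, had 56.5 and 109 (ratio 1.92, 1.86 to 1.99). Immt was 0.919 times the level of Samm50 at D0 (0.878 to 0.962) and 1.42 times at D7 (1.37 to 1.46). The order of the 2 genes was thus reversed between the libraries.

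The prohibitins, which form ring complexes in the inner membrane and bind its proteases, were higher at D7 by similar factors. Phb had 72.5 at D0 and 115 at D7 (ratio 1.59, 1.51 to 1.67). Phb2 had 97.0 and 145 (ratio 1.5, 1.42 to 1.58). The level of Phb2 relative to Phb was 1.34 at D0 (1.26 to 1.42) and 1.26 at D7 (1.20 to 1.33), so their proportion differed by less than counting error.

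Of the fusion genes, Opa1 stood apart. Opa1 (chromosome 16, 29579334 to 29654884, plus strand), the GTPase that fuses inner membranes and keeps cristae narrow, stood at 10.6 FPKM at D0 and 29.3 at D7 (ratio 2.77, 2.54 to 3.04) at percentile 89.5. Mfn2, an outer membrane GTPase that also tethers mitochondria to the endoplasmic reticulum, had 28.8 and 56.7 (ratio 1.96, 1.87 to 2.06), just under 2.0-fold. Mfn1, its paralogue, had 10.1 and 12.5, a ratio of 1.24 (1.13 to 1.35). Oma1, the protease that cleaves Opa1 under stress, had 5.99 and 7.51, a ratio of 1.25 (1.04 to 1.51).

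The proportions among the fusion genes differed between the libraries. Mfn2 was 2.86 times the level of Mfn1 at D0 (2.66 to 3.09) and 4.55 times at D7 (4.24 to 4.88). Opa1 was 1.05 times the level of Mfn1 at D0 (0.95 to 1.16) and 2.36 times at D7 (2.18 to 2.55). Against its protease Oma1, Opa1 was at 1.77 (1.52 to 2.06) and 3.91 (3.41 to 4.50). In each of these 3 pairs the intervals of the libraries did not overlap.

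The fission genes showed smaller differences. Dnm1l, the cytosolic GTPase that constricts mitochondria (DRP1), stood at 18.5 FPKM at D0 and 27.3 at D7 (ratio 1.47, 1.38 to 1.58). Mff, its main adaptor on the outer membrane, had 39.6 and 42.6 (ratio 1.07, 0.997 to 1.16). Fis1, another outer membrane adaptor and the gene with the highest FPKM of the 33 at D0, had 120 and 110 (ratio 0.915, 0.856 to 0.979). Dnm1l relative to Fis1 was 0.154 at D0 (0.144 to 0.165) and 0.248 at D7 (0.232 to 0.266). Summed FPKM of the 4 genes grouped under fusion, Oma1 included, was 55.5 at D0 and 106 at D7. That of the 3 fission genes, most of it from Fis1, was 178.2 and 179.7. Their quotient was 0.311 at D0 and 0.590 at D7. It depends on which genes are grouped, leaves out other fission genes such as Mtfp1, and does not measure the balance of fusion and fission.

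**Figure D3:**
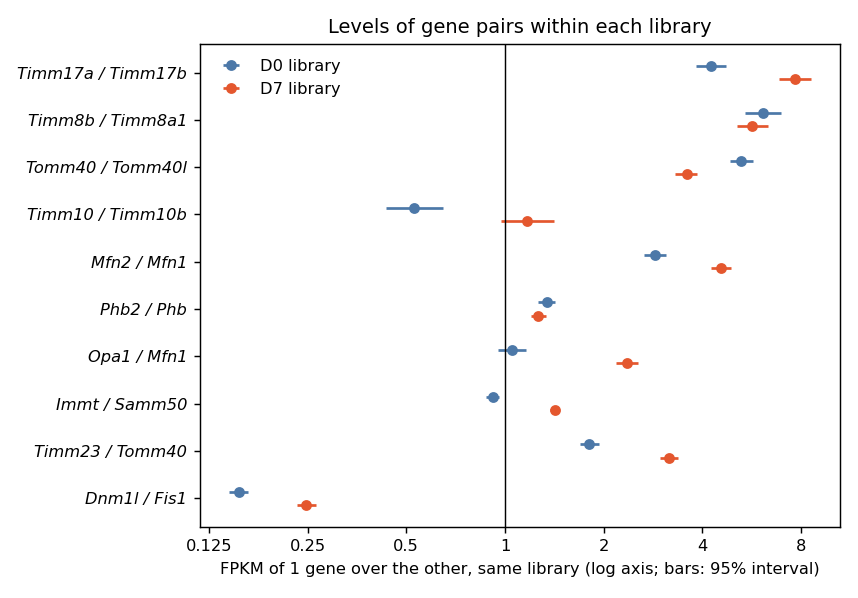
FPKM of 1 gene divided by that of the other in the same library, on a log axis, with 95% counting intervals as bars. D0 and D7 overlap for Timm8b over Timm8a1 and Phb2 over Phb, whereas Opa1 over Mfn1 stands at 1.05 and 2.36.

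Grouped by the place of their proteins, the 33 genes fell into 13 of the outer membrane, 18 of the inner membrane, intermembrane space or matrix, and 2 of the cytosol (Dnm1l and Tomm34). This grouping was made after the values were seen and was not tested. The median ratio was 1.11 for the outer membrane, where most genes were TOM genes, and 1.58 for the inner side. The other genes described below did not show this split. Their outer membrane class had a median ratio of 1.54. Their classes of the inner side ran from 1.25 (oxidation system of the intermembrane space) to 2.14 (cristae). None of the 13 and 5 of the 18 (27.8%) were at least 2.0-fold higher, beside 18.5% of all genes and 9.37% of those that reached 5 FPKM in D0 and D7. With the floor of 0.01 and the library median, 2 of the 18 were, beside 2001 of the 14986 genes above 0 in both libraries. The median log2 ratio of the outer membrane genes then turned from 0.15 to -0.20, while that of the inner side went from 0.66 to 0.31. The exceptions on each side were Mfn2 and Samm50, outer membrane genes near 2.0-fold, and Timm17b and Timm10b, inner genes with ratios below 1. The summed FPKM of the inner genes was 1.09 times that of the outer genes at D0 and 1.51 times at D7, a quotient that does not depend on the scaling.

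Another 48 genes of import, proteolysis, cristae and dynamics were described beside these, and all 48 were above 0 in both libraries. At least 2.0-fold higher at D7 were 20 (41.7%, beside 18.5% of all genes), and none was at least 2.0-fold lower (13.2% of all genes). The median ratio was 1.70. After the floor of 0.01 with the library median, 8 were higher and 1 lower. Of the 14986 genes above 0 in both libraries, 2001 were then higher and 3247 lower. The genes of cristae had 4 of 7 past 2.0-fold, those of fission and trafficking 5 of 9, processing and quality proteases 6 of 14, outer membrane proteins 2 of 5, the matrix motor and chaperones 2 of 8, inner membrane insertion 1 of 3, and the oxidation system of the intermembrane space 0 of 2.

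Of those with the largest ratios past 2.0-fold, 7 are described, and all were higher at D7. Mtfp1, an inner membrane protein that promotes fission, had an FPKM of 0.574 at D0, about 15 fragments, and 10.7 at D7 (ratio 18.6, 11.1 to 33.8). Pink1, a mitochondrial kinase of quality control, had 23.0 and 85.4 (ratio 3.71, 3.46 to 3.97). Rhot2, a GTPase that couples mitochondria to microtubule motors, had 6.04 and 19.6 (ratio 3.24), and its deposited locus also holds Wdr90 and Gm20683.

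Apoo, a MICOS subunit, had 13.4 at D0 and 65.2 at D7 (ratio 4.88, 4.29 to 5.55). Immp2l, a peptidase of the inner membrane, had 1.8 and 13.3 (ratio 7.40, 5.21 to 10.8). Clpx, the unfoldase of the matrix protease ClpXP, had 11.1 and 43.8 (ratio 3.96, 3.63 to 4.34). Dnajc15, a cochaperone of the import motor, had 29.9 and 103 (ratio 3.44, 3.32 to 3.57). The genes of MICOS subunits Immt, Chchd3 (ratio 2.41), Chchd6 (2.49), Apoo and Apool (2.14) were past 2.0-fold, as were 18.5% of all genes, while Minos1, another subunit, had a ratio of 1.36. With the floor of 0.01 and the library median, Chchd3 (1.89), Chchd6 (1.95) and Apool (1.67) no longer reached 2.0, and Immt (2.32) and Apoo (3.82) did.

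**Figure D4:**
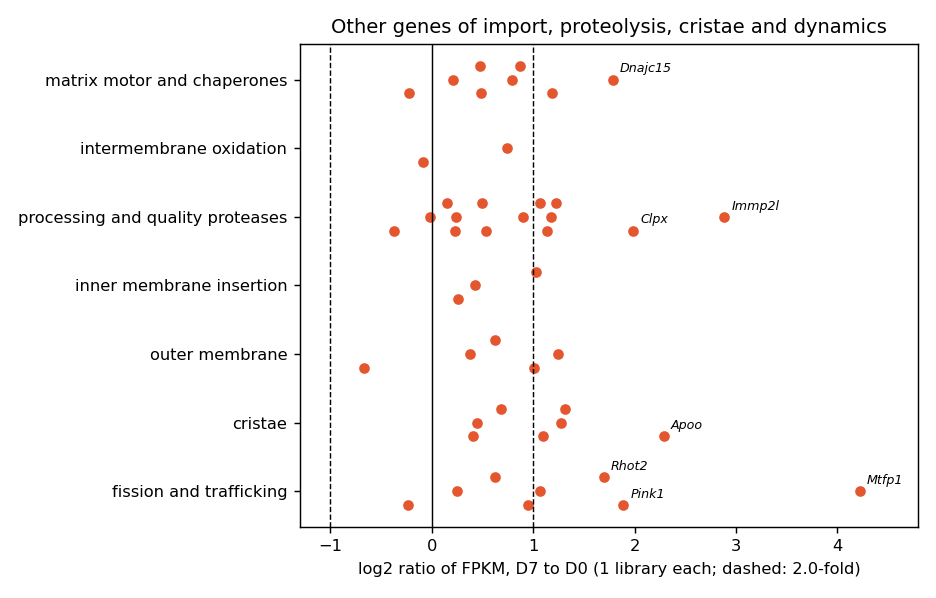
log2 ratio of D7 to D0 for 47 of the 48 other genes by class, 1 library per stage, each point 1 gene; dashed lines mark 2.0-fold. The 7 genes described are named, with log2 ratios up to 4.22 for Mtfp1, and no point lies left of -1.

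Other mitochondrial lists are given for scale. The 76 mitochondrial ribosomal proteins had a median ratio of 1.52, with 12 at least 2.0-fold higher (15.8%, beside 18.5% of all genes) and 1 lower. The 37 genes listed as complex I subunits had a median ratio of 2.39, with 25 at least 2.0-fold higher (67.6%) and 0 lower. That list was made by symbol and holds Ndufa4 (log2 ratio 1.28) and Ndufa4l2 (0.19). Membership of the complex was not checked. The import and dynamics genes, at 1.47, lay near the ribosomal proteins and below complex I, a difference that was not tested. The ratios of the 33 genes ran from 0.733 to 2.96. The lower and upper quartiles of their log2 ratio were 0.10 and 0.86. For all genes that reached 5 FPKM in D0 and D7 the quartiles were -0.47 and 0.36, a spread of similar width.

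**Figure D5:**
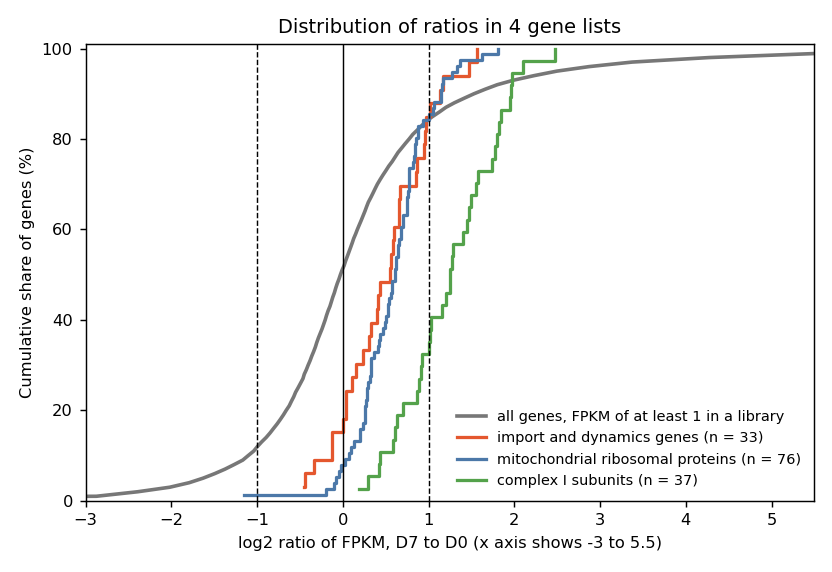
Cumulative share of genes against the log2 ratio of D7 to D0 for the import and dynamics genes, mitochondrial ribosomal proteins, complex I subunits and all genes that reached 1 FPKM in a library. The curve of the import and dynamics genes (median 0.55) follows that of the ribosomal proteins (median 0.61), and complex I subunits lie to the right (median 1.26).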

How the data were processed

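RNA-Seq was performed by the authors on 1 library of brown preadipocytes (D0) and 1 of brown adipocytes (D7). They removed adaptor, low quality, duplicate and rRNA reads and mapped the others to mm10 and gene sequences with SOAP2; the processing notes of the submitters name Bowtie2. The counting tool and the use of strand are not given in the sources used here. The authors deposited 1 FPKM value per gene and library, without replicates. Of 27324 rows, 23361 held values.

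Ratios of D7 to D0 were computed from the FPKM as deposited, without a pseudocount, for genes above 0 in both libraries, with 2.0-fold as the threshold. The members and gene lists were chosen with earlier results of these data known. All members are named. Of the 48 other genes, those past 2.0-fold with at least 20 fragments in a library were eligible and the 8 with the largest ratios were taken. Of these, 1 is not reported here by name or value, though the counts include it. The scaling with a floor and library median was worked out in an earlier analysis from the folds tabulated in the study, whose methods do not describe a scaling.

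Fragment numbers were recovered from 602 single-exon genes of at least 600 bp. With 179 bp (D0) and 182 bp (D7) taken from each length, 100% of 79 and 90 low values (up to 20 fragments) were whole within 0.1; with shuffled lengths 24.2% and 25.3% were. Multi-exon genes took the length of the transcript named in the table where it lay in the deposited locus (25 of the 35 members), or else of the GENCODE M21 coding transcript nearest to it, so their numbers are approximate. The Clopper-Pearson method (exact, 95%) gave the intervals. The calculation was checked on simulated data of 12077 genes with at least 20 fragments at D0, in which both libraries varied by counting error only. There, 95.7% of intervals held the true ratio. Of 200 genes changed 3-fold, 99.0% were called, beside 0.109% of the unchanged genes. Spread between cultures and errors of length or scaling were not simulated, so these shares are not error rates of the 2.0-fold threshold in the real data. Promoters were those of RefSeq for GRCm38.p6, of which mm10 is the primary build. Near-identical transcripts were searched with blastn. Calculations ran in Python 3.11.15 with scipy 1.17.1, pandas 2.3.3 and numpy 2.4.6, and plots in matplotlib 3.10.9.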

Additional observations from a re-analysis of the deposited data

How the results depend on the processing

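The alternatives were 0.1 or 1 added to each FPKM, a minimum of 1 FPKM in a library, division by the median or the upper quartile of genes above 0 in both libraries, TPM, a floor of 0.01 with the library median, summing of rows with one symbol, and thresholds of 1.5-fold and 4.0-fold. No member was at least 2.0-fold lower, or past the other thresholds downward, under any of them. The number at least 2.0-fold higher was 4 or 5 under all but 3. It was 2 with the floor of 0.01, 14 at 1.5-fold and 0 at 4.0-fold. The median log2 ratio of the members was between 0.45 and 0.55 apart from the floor of 0.01, which gave 0.20. Over all genes, a pseudocount of 1 gave 1455 higher and 1009 lower, the floor over all rows 2836 higher and 3832 lower, the floor over genes above 0 in both (chosen after seeing the data) 2001 higher and 3247 lower, 1.5-fold 4148 higher and 3538 lower, and 4.0-fold 1211 higher and 578 lower, in place of 2767 and 1980. The ratio moved outside its counting interval for all 33 members with the floor, for 10 with the median of genes above 0, and for 1 with the upper quartile. Intervals that exclude 1 numbered 28, or 30 with the longest coding transcript and 26 after division by the median. Leaving out members with another coding gene in the deposited locus, a choice made after seeing the data, gave a median log2 ratio of 0.49 and 4 genes past 2.0-fold. No paired analysis was possible because each stage has 1 library, and for the same reason no library could be left out. Members rested on 119 to 8820 fragments in a library, and the spread between cultures was not measured.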

Other observations

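Some of the genes start near a coding gene on the opposite strand. A coding gene on the opposite strand started within 1000 bp upstream of 6 of the 35 genes (17.1%), beside 9.47% of 13413 coding genes above 0 in both libraries. Sdhd, a subunit of succinate dehydrogenase whose start lies 98 bp from that of Timm8b, stood at 88.0 FPKM at D0 and 264 at D7 (ratio 3.0), while Timm8b had a ratio of 1.47. Parg, which starts 51 bp from Timm23, had 7.46 and 7.40, a ratio of 0.992, beside 1.8 for Timm23. Emg1, which starts 158 bp from Phb2, had a ratio of 0.826 beside 1.5 for Phb2. Pqbp1, which starts 88 bp from Timm17b, had 47.4 and 32.5, a ratio of 0.686, beside 0.734 for Timm17b. The neighbours 2700049A03Rik of Timm9 and Frs3 of Tomm6 had ratios of 0.797 and 0.912, beside 2.25 and 1.57. Frs3 starts 644 bp away and lies in the deposited locus of Tomm6, so the value of Tomm6 is uncertain. In these 6 pairs nearby starts thus went with similar ratios for Timm17b, and with unlike ratios for the others, as values of 1 library per stage. Use of a common promoter was not tested.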
